A study of Mus musculus with 12 samples.

Results

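The 128 T cell receptor alpha variable (Trav) segments of the mouse were read in the authors' deposited tables of 3 checkpoint blockade treatments against isotype. Members were the genes whose name begins with Trav and a digit, segments shared with the delta chain included, and they made up 128 of the 48709 genes listed. Of these segments, 111 were among the 17833 genes tested in every table. The study sorted tumour antigen-specific CD8 T cells from wild type C57BL/6 mice of postnatal day 91 that carried TRAMP-C2, a transplantable mouse prostate tumour line. Sorted cells were live CD45+CD3+CD8+, stained with Spas-1 but not with Spas-2 tetramer, and were taken from draining lymph nodes on day 28. Mice received anti-CTLA-4, anti-PD-1 DANA, the combination of both antibodies or an isotype control antibody on days 3, 6 and 9 per the sample labels. The DANA antibody carries an Fc mutation so that Fc receptors no longer bind it. Cells of 5 mice were pooled per arm and the pool was split into 3 libraries, 12 in all, so the p-values describe only how splits of 1 pool vary. Arm and pool cannot be told apart. Each library started from 0.25 ng of RNA and 21 preamplification cycles.

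An alpha chain is assembled in the thymus when 1 variable segment is joined to 1 joining segment (Traj) upstream of the constant gene Trac. The variable segment supplies a leader and a V exon, and the V exon ends just after a conserved tyrosine and cysteine, where the joint encodes the third complementarity-determining region that touches peptide and MHC. All descendants of a T cell keep its rearrangement, so the segments read in a T cell sample depend on which clones it holds. In the C57BL/6 genome much of the locus is present in duplicated blocks, whose segments carry a d or an n in their names. In bulk RNA, fewer cells that use a segment and less of its RNA per cell cannot be told apart.

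Levels are given in RPKM (reads per kilobase of exon, scaled to the reads of the library). For each gene the tables hold a log2 fold change, p-values and whichever group mean was larger, and no value per library. Each larger mean is a sum over whole reads of 3 libraries, and whole reads per library were recovered for all 293 nonzero means of Trav segments. Library sizes recovered in the same way ranged between 14729713 and 29583827 reads under anti-CTLA-4, between 24233466 and 31943900 under anti-PD-1 DANA, between 24594651 and 42556869 under the combination and between 23973359 and 32867235 under isotype. The labels state about 48710 reads for a library, far below these sizes; the sizes, and all read numbers given here, rest on the tables and annotated exon lengths. Within a group, values per library are given in order of depth, from the shallowest to the deepest, since recovered libraries cannot be tied to replicate numbers. Where a treatment had the smaller mean its value is not known, other than that it lay below the isotype mean. Isotype values are known for 104 segments, of which 45 had 0 reads and 59 had reads. The authors' fold changes lie below ratios of library-size-scaled means by 0.94 (log2) under anti-CTLA-4, 0.82 under anti-PD-1 DANA and 0.11 under both together. Library size scaling below means that this constant was added to every log2 fold change. It raises all of them alike, and no counts were refitted. The median tested gene stood at a log2 fold change of -0.62, -0.45 and -0.42 in the authors' deposited tables of the 3 treatments in that order.

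All 128 segments lie on the plus strand of chromosome 14 between 52427928 and 53977678 (GRCm38), a span of 1549.8 kb, and all have the same coordinates in GENCODE mouse release M21. They fall into 23 families by name. No copy suffix is carried by 55, a d by 39 and an n by 34. The annotation marks 108 as functional variable genes and 20 as pseudogenes, and 10 are shared with the delta chain. A V exon at least 95% identical to that of another member was found for 101 segments, and 38 segments form 19 pairs with identical V exons. Reads cannot be assigned with certainty within such copies, so a value of a single copy is uncertain. At 0 in every group of all tables were 16 segments, 13 of them pseudogenes. The codons for tyrosine, any residue and cysteine were found without regard to frame in the last 40 bases of the V exon of 123 of 128 segments (96.1%) and of all 108 functional ones.

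The V exons of 8 segments on which the results turn are printed 5′ to 3′ as genome sequence of the GENCODE M21 annotation (GRCm38, plus strand). Trav12-2 (chr14:53616623-53616914) was called higher in both single treatments and Trav12d-2 (chr14:52916138-52916426) in anti-CTLA-4. Trav12n-2 (chr14:53227112-53227400) is identical to Trav12d-2 over the V exon. Capitals in Trav12d-2 mark 11 bases that differ from Trav12-2, and 14 edits in all separate them (95.2% identity). Trav12-3 (chr14:53621946-53622245) and Trav12d-3 (chr14:52929983-52930282) differ at 10 bases, marked by capitals in Trav12d-3 (96.7% identity), and are printed without their first base. Trav12n-3 (chr14:53240945-53241244) is identical to Trav12d-3 over the V exon and was called higher in the combination, where Trav12-3 was called lower. For Trav9-4 (chr14:53676337-53676630), Trav8-2 (chr14:53738554-53738838), Trav17 (chr14:53806824-53807115) and Trav13-1 (chr14:53545247-53545525), capitals run from the last tyrosine-any-cysteine codons to the 3′ end, where joining takes place.
Trav12-2: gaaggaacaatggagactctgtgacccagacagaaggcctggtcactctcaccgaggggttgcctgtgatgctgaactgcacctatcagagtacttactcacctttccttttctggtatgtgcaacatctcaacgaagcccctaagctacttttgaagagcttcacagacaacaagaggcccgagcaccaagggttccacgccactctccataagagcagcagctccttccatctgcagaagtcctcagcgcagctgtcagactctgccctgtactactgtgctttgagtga
Trav12d-2: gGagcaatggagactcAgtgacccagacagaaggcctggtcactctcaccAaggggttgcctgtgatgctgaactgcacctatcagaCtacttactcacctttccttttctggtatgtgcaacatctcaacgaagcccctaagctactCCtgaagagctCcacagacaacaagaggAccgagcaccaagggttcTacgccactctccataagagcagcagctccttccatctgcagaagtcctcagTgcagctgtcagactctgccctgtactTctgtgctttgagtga
Trav12-3: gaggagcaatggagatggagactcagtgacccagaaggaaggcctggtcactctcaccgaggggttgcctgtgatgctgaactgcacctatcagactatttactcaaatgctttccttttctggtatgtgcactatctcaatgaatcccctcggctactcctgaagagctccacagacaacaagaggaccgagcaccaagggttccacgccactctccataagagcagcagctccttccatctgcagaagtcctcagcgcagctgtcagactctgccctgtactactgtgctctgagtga
Trav12d-3: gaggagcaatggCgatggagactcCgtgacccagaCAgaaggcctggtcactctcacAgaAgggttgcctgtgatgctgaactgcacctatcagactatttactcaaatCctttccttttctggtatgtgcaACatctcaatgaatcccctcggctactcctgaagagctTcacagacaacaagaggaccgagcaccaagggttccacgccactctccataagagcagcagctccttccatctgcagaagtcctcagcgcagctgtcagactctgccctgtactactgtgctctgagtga
Trav9-4: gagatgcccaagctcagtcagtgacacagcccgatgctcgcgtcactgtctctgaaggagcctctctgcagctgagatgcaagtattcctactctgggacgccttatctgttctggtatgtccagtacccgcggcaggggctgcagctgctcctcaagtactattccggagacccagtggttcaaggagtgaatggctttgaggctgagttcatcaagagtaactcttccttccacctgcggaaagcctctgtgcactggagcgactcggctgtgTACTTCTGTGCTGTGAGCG
Trav8-2: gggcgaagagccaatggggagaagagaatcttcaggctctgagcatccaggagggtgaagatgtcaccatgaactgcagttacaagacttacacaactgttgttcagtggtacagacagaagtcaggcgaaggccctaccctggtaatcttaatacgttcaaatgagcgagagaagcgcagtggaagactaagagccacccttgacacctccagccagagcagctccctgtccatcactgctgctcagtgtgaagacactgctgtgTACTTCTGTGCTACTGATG
Trav17: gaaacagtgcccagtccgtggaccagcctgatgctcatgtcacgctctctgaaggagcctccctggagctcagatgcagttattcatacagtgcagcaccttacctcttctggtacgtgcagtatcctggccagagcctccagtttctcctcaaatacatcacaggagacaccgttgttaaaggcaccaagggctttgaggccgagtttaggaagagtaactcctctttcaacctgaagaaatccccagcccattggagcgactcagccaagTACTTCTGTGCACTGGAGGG
Trav13-1: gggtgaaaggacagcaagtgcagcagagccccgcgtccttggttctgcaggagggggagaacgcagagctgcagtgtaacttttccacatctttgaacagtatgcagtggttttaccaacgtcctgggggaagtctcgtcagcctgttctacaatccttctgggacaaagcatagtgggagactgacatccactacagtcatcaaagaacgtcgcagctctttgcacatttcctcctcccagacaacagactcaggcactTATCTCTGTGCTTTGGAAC

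Trav segments were read in every group. Among the segments with known values, reads were found for 64 in anti-CTLA-4, 71 in anti-PD-1 DANA, 35 in the combination and 59 in isotype. The combination's number is the least complete, since 55 segments were lower there than in isotype and their reads are not known. Segments with 10 or more known reads numbered 33, 33 and 37 in the anti-CTLA-4 libraries, 34, 37 and 45 in the anti-PD-1 DANA libraries and 16, 20 and 15 in the isotype libraries. In the combination libraries they numbered 3, 11 and 8. Segments of unknown value were left out, 35 in anti-CTLA-4, 33 in anti-PD-1 DANA, 55 in the combination and 24 in isotype. The order of the libraries over all segments is thus not known, and the same count over all genes was not made. Those 24 could add at most 49.8 RPKM to the 466.2 RPKM of isotype means known. Known Trav reads made up 0.0213%, 0.0182% and 0.0160% of all reads of the isotype libraries.

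Different segments led in different isotype libraries. In the shallowest, Trav13-1 (1057 reads, 133.2 RPKM), Trav9n-4 (993 reads), Trav15-1-dv6-1 (637 reads), Trav16n (546 reads) and Trav7-5 (327 reads) led and together gave 69.6% of known Trav reads. In the middle library the leaders were Trav17 (546 reads), Trav8-2 (540 reads), Trav5-4 (432 reads), Trav16 (417 reads) and Trav14-2 (363 reads), with 51.4% of known Trav reads. The deepest was led by Trav12-3 (919 reads), Trav9-2 (860 reads), Trav6-7-dv9 (691 reads), Trav14-1 (619 reads) and Trav7-2 (428 reads), with 66.7%. No segment was among the 5 leaders of more than 1 isotype library. In the combination ranks could be read only among known values, since 55 segments with the larger mean in isotype have no known reads. Of these known values, Trav12n-3 (1403 reads, 93.4 RPKM) and its identical copy Trav12d-3 (1350 reads, 91.4 RPKM) were highest in the deepest library, followed by Trav9-4 (633 reads). In the middle library Trav7-2 (457 reads), Trav6d-6 (305 reads) and its identical copy Trav6-6 (269 reads) were highest. The shallowest combination library held few known reads, with Trav12-2 (102 reads) and Trav10 (48 reads) on top. The 5 highest known segments gave 34.1%, 29.9% and 33.0% of known Trav reads in the anti-CTLA-4 libraries and 43.6%, 30.7% and 30.7% in the anti-PD-1 DANA libraries. These shares leave out 35 segments in anti-CTLA-4 and 33 in anti-PD-1 DANA that were lower than in isotype. They therefore cannot be set against the isotype shares.

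**Figure D1:**
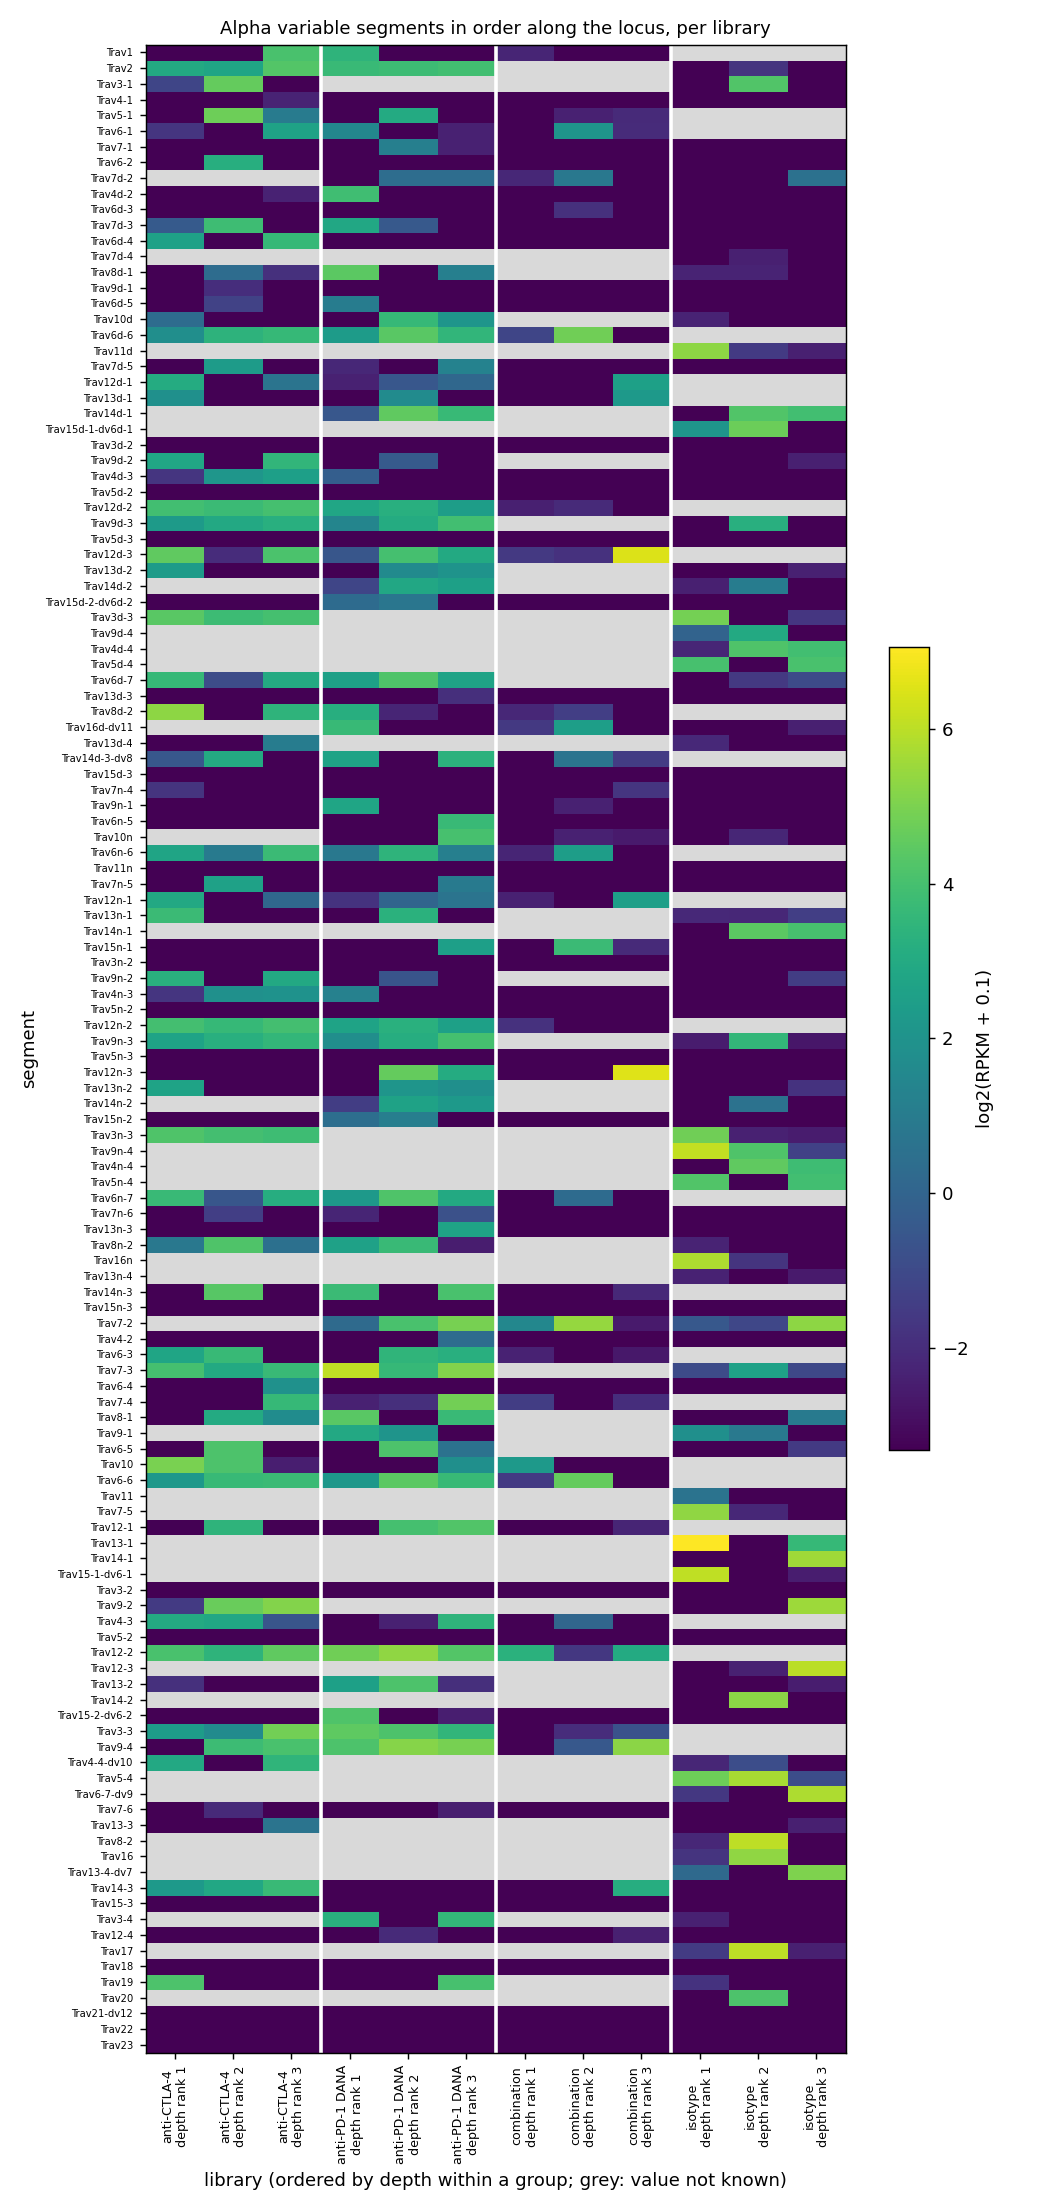
Heat map of log2(RPKM + 0.1) for the 128 segments in order along the locus (rows) in 12 libraries (columns, ordered by depth within anti-CTLA-4, anti-PD-1 DANA, combination and isotype), with grey where a value is not known. Bright cells of isotype lie mostly in 1 library per segment, such as Trav13-1 at 133.2 RPKM, while several rows, such as Trav12d-2, are bright in all 3 anti-CTLA-4 libraries.

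The first table set anti-CTLA-4 against isotype. Trav12d-2, Trav12n-2 and Trav12-2, 3 members of 1 family, rose and the pseudogene Trav8-2 fell. At the authors' false discovery rate under 0.05 (Benjamini-Hochberg adjusted over all listed genes), 3 of 111 tested segments were called higher and 1 lower, which is 2.70% and 0.901% of those tested. Of all tested genes 2.74% were called higher and 1.49% lower. The members' shares lay near or below this background. At an unadjusted p under 0.05, 35 segments were higher (31.5%, against 14.8% of all tested genes) and 7 lower (6.31%, against 8.14%).

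Trav12d-2 stood at 14.8, 13.5 and 15.7 RPKM in the anti-CTLA-4 libraries, from 99, 117 and 211 reads, while its isotype mean was at most 0.0757 RPKM. All 3 anti-CTLA-4 libraries lay above anything isotype could hold, and they differed little among themselves (14.7 ± 1.1 RPKM, SD, n = 3). Its log2 fold change was 7.70 ± 2.22 (with the standard error that the authors' p-value implies) with an adjusted p of 0.0405 in the authors' deposited table. The identical copy Trav12n-2 had 15.3, 12.5 and 15.3 RPKM in the anti-CTLA-4 libraries, against an isotype mean of at most 0.0597 RPKM. The log2 fold change came to 7.66 ± 2.24 with an adjusted p of 0.0446 in the authors' deposited table. With identical V exons these calls are not independent of each other. Trav12-2 had 16.7, 10.6 and 22.9 RPKM in the anti-CTLA-4 libraries (mean 16.7 ± 6.2, SD, n = 3), against an isotype mean of at most 6.02 RPKM. From this bound alone it cannot be read whether the groups overlap. It had a log2 fold change of 6.52 ± 1.92 with an adjusted p of 0.0466, the call nearest the threshold, in the authors' deposited table.

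Trav8-2 had 0.124, 65.4 and 0 RPKM in the isotype libraries, which is 540 of 541 reads from the middle one, and less than the isotype mean of 21.8 RPKM in anti-CTLA-4. The isotype level thus rested on 1 library, and without it the isotype mean would be 0.0619 RPKM. Its log2 fold change was -7.84 ± 2.26 with an adjusted p of 0.0393 in the authors' deposited table, and on library size scaling it was -6.90 and not called. Just outside the threshold lay Trav11d, at -7.18 ± 2.22 with an adjusted p of 0.0631 in the authors' deposited table. On library size scaling 8 segments were called and all 8 were higher, against 3 of 4 (75%) on the authors' scaling. Calls over all genes rose as well, from 754 to 1367, and 86.9% of the 1367 were higher, against 64.7% before.

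Below the threshold, many segments were read in anti-CTLA-4 and hardly in isotype. The median log2 fold change of the 111 tested segments was 1.30 in the authors' deposited table, beside -0.62 over all tested genes. Both medians include genes at 0 in both groups. Of segments with reads the median was 1.65, beside -0.32 over all tested genes with reads. Segments with a larger mean of 5 RPKM or more had a median of 0.45. The anti-CTLA-4 mean was the larger for 64 segments and the isotype mean for 35, and 29 were at 0 in both groups. The median log2 fold change of segments with reads was 1.45 without a suffix (44 segments), 2.15 with a d (32 segments) and 2.14 with an n (23 segments), so the copy blocks lay close together. Trav2, the sole member of its family, had 48, 55 and 239 reads in the anti-CTLA-4 libraries, against 0, 2 and 0 in the isotype libraries, and these groups did not overlap. Among known anti-CTLA-4 means, the largest included Trav9-2 (20.3 RPKM), Trav3d-3 (16.9 RPKM), Trav8d-2 (16.7 RPKM) and Trav10 (16.4 RPKM). The 35 segments with the larger mean in isotype are not in this ranking, and some could lie higher.

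PD-1 blockade was set against isotype in the next table. Trav12-2 and Trav9-4 rose, and Trav8-2 and Trav17 fell. Of 111 tested segments 2 were called higher and 2 lower (1.80% each), against 2.43% and 1.32% of all tested genes. At an unadjusted p under 0.05, 37 segments were higher (33.3%, against 15.3% of all tested genes) and 4 lower (3.60%, against 7.77%).

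Trav12-2 had 27.9, 40.2 and 19.4 RPKM in the anti-PD-1 DANA libraries (mean 29.2 ± 10.4, SD, n = 3), against an isotype mean of at most 6.02 RPKM. Each of these libraries lay above 3 times that bound, so no isotype library could reach them. The log2 fold change came to 7.43 ± 1.92 with an adjusted p of 0.0167 in the authors' deposited table. Trav9-4 had 17.8, 36.3 and 30.7 RPKM in the anti-PD-1 DANA libraries (mean 28.2 ± 9.5, SD, n = 3), from 170, 384 and 387 reads. Its isotype mean was at most 10.2 RPKM, a bound set by the anti-CTLA-4 table. The log2 fold change was 7.75 ± 2.19 with an adjusted p of 0.0366, nearest to the threshold among the calls, in the authors' deposited table. Just outside was Trav2, with 135, 157 and 204 reads in the anti-PD-1 DANA libraries, against 0, 2 and 0 in the isotype libraries. Although these groups did not overlap, its log2 fold change of 6.86 ± 2.11 had an adjusted p of 0.0648 in the authors' deposited table.

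Both segments called lower were read in the middle isotype library almost alone. Trav17 had 0.245, 65.3 and 0.0892 RPKM in the isotype libraries, from 2, 546 and 1 reads, and an anti-PD-1 DANA mean below the isotype mean of 21.9 RPKM. It had a log2 fold change of -11.13 ± 3.02 with an adjusted p of 0.0256 in the authors' deposited table. Trav8-2, with the isotype values given above, was at -11.11 ± 3.04 with an adjusted p of 0.0275 in the authors' deposited table. Without that library the isotype mean of Trav17 would be 0.167 RPKM. On library size scaling 10 segments were called, 8 of them higher (80%, against 50.0% on the authors' scaling). Calls over all genes rose as well, from 669 to 1217, and 86.4% of the 1217 were higher, against 64.9% before.

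The median log2 fold change of the 111 tested segments was 3.33 in the authors' deposited table of anti-PD-1 DANA, beside -0.45 over all tested genes. Of segments with reads the median was 3.44, beside -0.14 over all tested genes with reads. Segments with a larger mean of 5 RPKM or more had a median of 0.72. The anti-PD-1 DANA mean was the larger for 71 segments and the isotype mean for 33, and 24 were at 0 in both groups. Medians of segments with reads were 3.33 without a suffix, 3.47 with a d and 4.80 with an n. The highest known mean of the arm was that of Trav7-3, at 66.9, 12.3 and 34.7 RPKM in the anti-PD-1 DANA libraries, against 0.415, 5.99 and 0.378 RPKM in the isotype libraries. These groups did not overlap, yet the log2 fold change of 3.38 ± 1.79 had an adjusted p of 0.662 in the authors' deposited table.

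Treatment with both antibodies was set against isotype in the last table. Trav12n-3 and Trav9-4 rose, while Trav11d, Trav4d-4, Trav4n-4, Trav13-1, Trav15-1-dv6-1, Trav12-3, Trav6-7-dv9, Trav8-2 and Trav17 fell. Of 111 tested segments 2 were called higher (1.80%) and 9 lower (8.11%), against 3.94% and 3.59% of all tested genes. At an unadjusted p under 0.05, 13 segments were higher (11.7%, against 12.4% of all tested genes) and 24 lower (21.6%, against 10.8%). In 9 of the 11 calls at least 80% of the larger mean came from a single library, and without those 9 segments 2 calls were left.

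Trav12n-3 had 0, 0 and 1403 reads in the combination libraries, against 0, 0 and 0 in the isotype libraries. Only the deepest combination library held it, at 93.4 RPKM, and the other 2 were like isotype. Pooled over the group, reads assigned to this copy stood at least 384-fold above isotype, taking 3 reads over the isotype group as the floor. The fitted log2 fold change was 11.16 ± 3.23 with an adjusted p of 0.0270 in the authors' deposited table. Its identical copy Trav12d-3 had 2, 2 and 1350 reads in the combination libraries and was not called, at 5.91 ± 2.0 with an adjusted p of 0.0853 in the authors' deposited table. The isotype mean of Trav12d-3 is known only to be at most 8.13 RPKM. Thus 0 isotype reads of Trav12n-3 do not show that the shared V exon was absent there. Trav9-4 had 0, 0.633 and 37.7 RPKM in the combination libraries, against an isotype mean of at most 10.2 RPKM. The same deepest library carried 98.3% of its mean. Its log2 fold change was 7.33 ± 2.20 with an adjusted p of 0.0361, the call nearest the threshold, in the authors' deposited table. Just outside was Trav15d-1-dv6d-1, at -10.18 ± 3.24 with an adjusted p of 0.0564 in the authors' deposited table.

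Of the segments called lower, Trav13-1 had the highest isotype level, at 133.2, 0 and 12.3 RPKM in the isotype libraries (mean 48.5 ± 73.6, SD, n = 3). Its spread between isotype libraries exceeded its mean. The log2 fold change was -6.52 ± 1.84 with an adjusted p of 0.0221 in the authors' deposited table. Trav12-3 had 0, 1 and 919 reads in the isotype libraries and a log2 fold change of -7.58 ± 2.06 (adjusted p = 0.0151) in the authors' deposited table. Trav6-7-dv9, shared with the delta chain, had 2, 0 and 691 reads in the same libraries and stood in the authors' deposited table at -7.95 ± 2.19 (adjusted p = 0.0173). Both were read in the deepest isotype library almost alone. Trav15-1-dv6-1, also shared with delta, had 637, 0 and 1 isotype reads and a log2 fold change of -9.43 ± 2.60 (adjusted p = 0.0178) in the authors' deposited table. Trav11d had 319, 2 and 1 isotype reads and stood in the authors' deposited table at -7.88 ± 2.32 (adjusted p = 0.0318). Both of these were segments of the shallowest isotype library.

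Trav8-2 (-9.14 ± 2.48, adjusted p = 0.0155) and Trav17 (-8.29 ± 2.29, adjusted p = 0.0182), segments of the middle isotype library, were called lower in the combination too in the authors' deposited table. Trav8-2 was called lower in all 3 tables and Trav17 in 2, but the tables share the isotype libraries, so these are not independent. The identical copies Trav4d-4 and Trav4n-4 were the only called segments read in more than 1 isotype library at a like level. Trav4d-4 had 0.118, 18.1 and 14.9 RPKM and Trav4n-4 had 0, 22.7 and 14.1 RPKM in the isotype libraries. They stood at -7.47 ± 2.21 and -7.61 ± 2.24 in the authors' deposited table, with adjusted p-values of 0.0327 and 0.0321.

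The median log2 fold change of the 111 tested segments was -0.42 in the combination, beside -0.42 over all tested genes, and 22 of the 111 were at 0 in both groups. Of segments with reads the median was -1.18, beside -0.05 over all tested genes with reads. The combination mean was the larger for 35 segments and the isotype mean for 55, and 38 were at 0 in both groups. Medians of segments with reads were -2.28 without a suffix, -0.52 with a d and -0.99 with an n. Library size scaling left the same 11 calls, while calls over all genes went from 1343 to 1359.

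**Figure D2:**
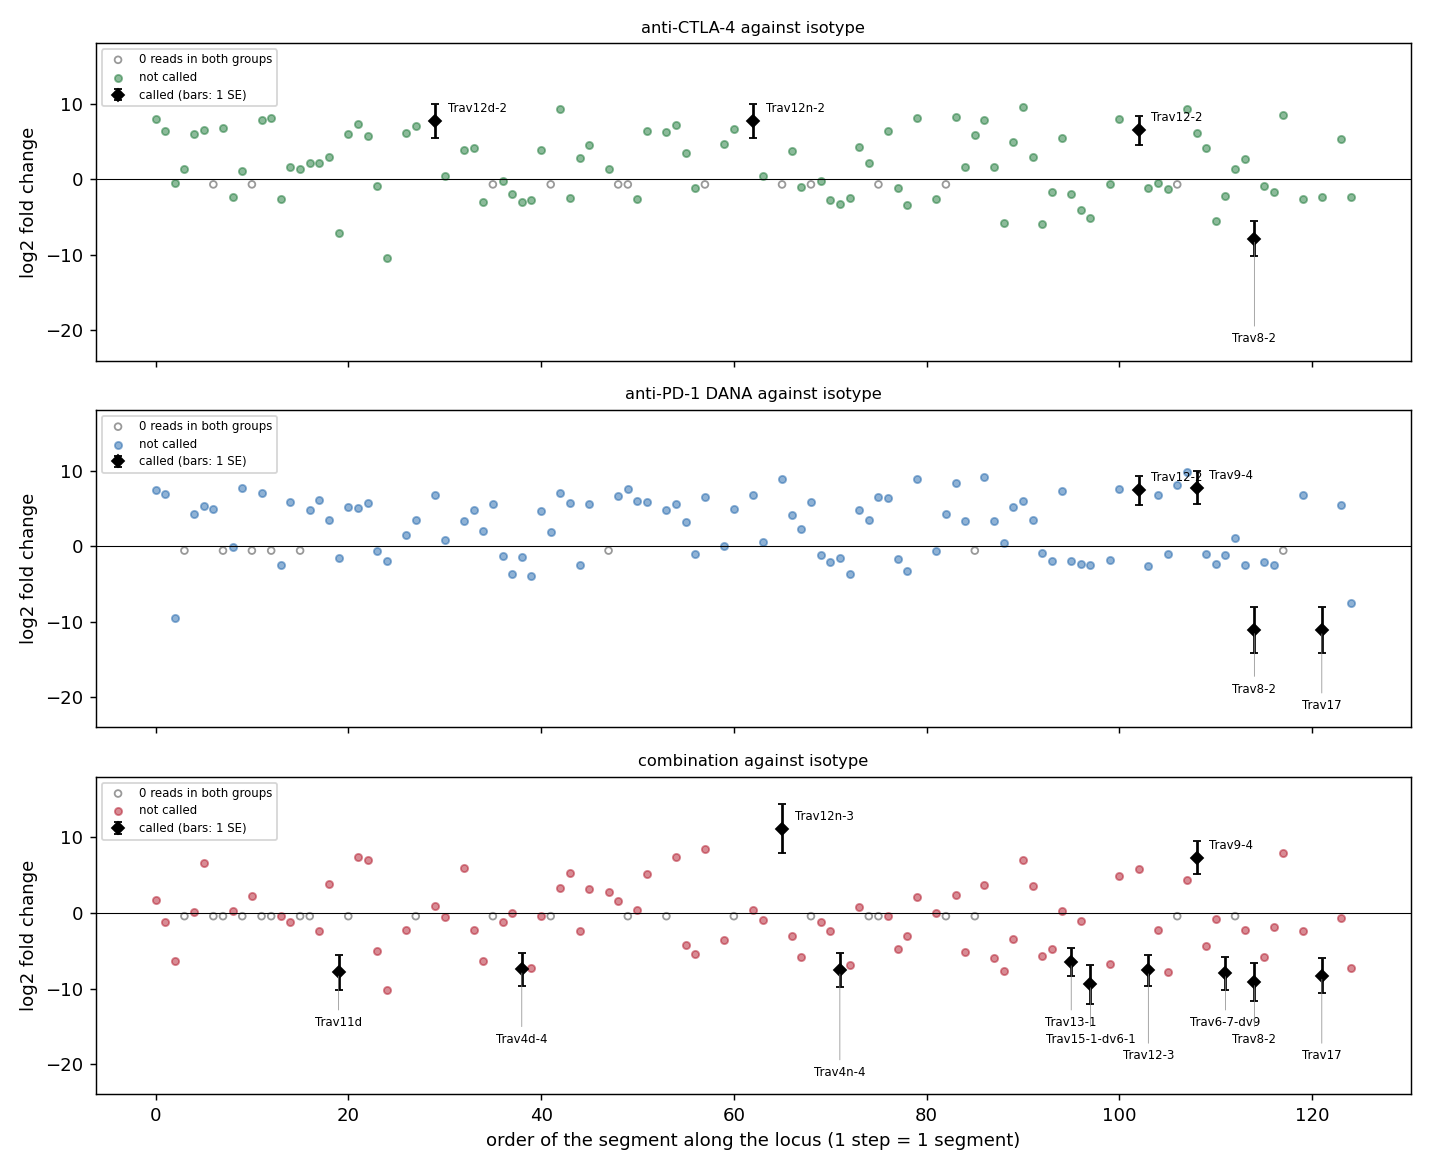
Authors' log2 fold change of each tested segment against its order along the locus, in 1 panel per treatment against isotype, with black diamonds for calls (bars show 1 implied standard error) and open circles for segments at 0 in both groups. Most points lie above 0 for anti-CTLA-4 and anti-PD-1 DANA, with medians of 1.30 and 3.33, and 9 of 11 calls lie below 0 for the combination.

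**Figure D3:**
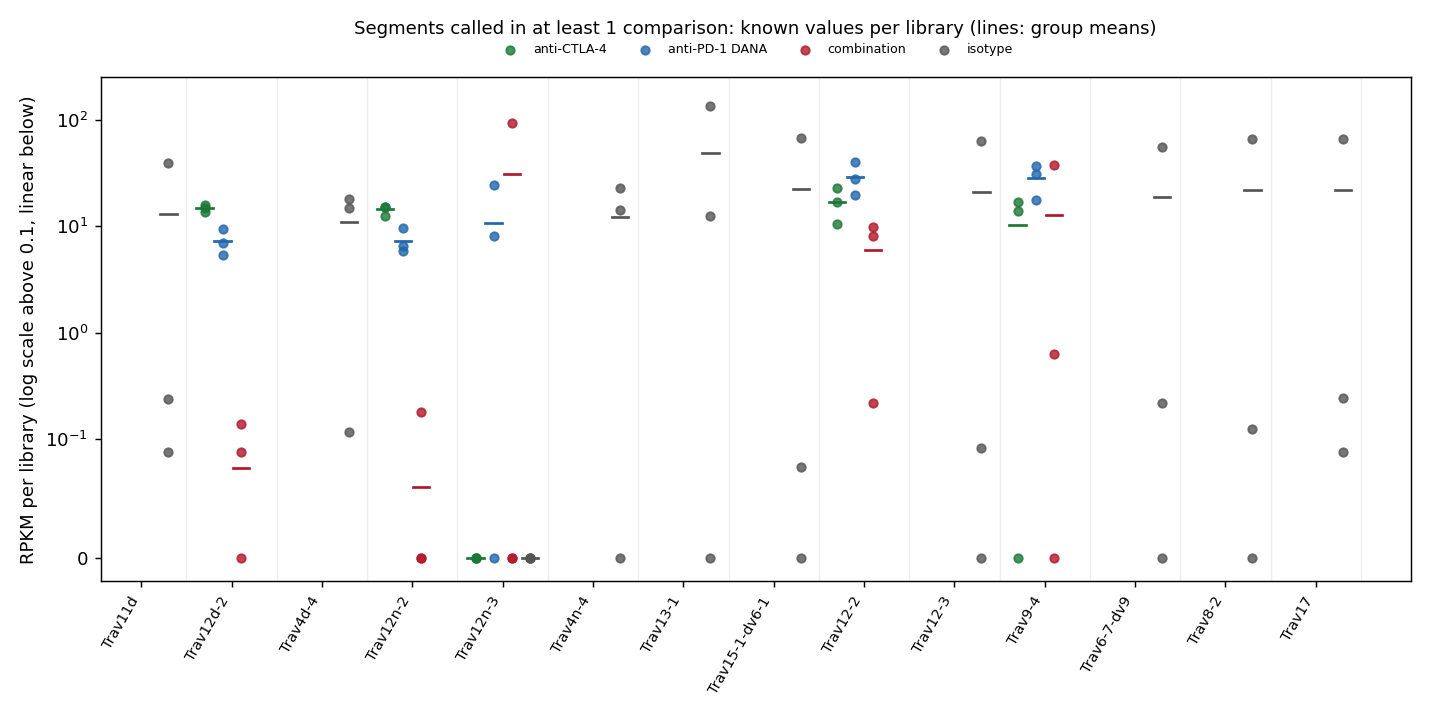
RPKM per library (log scale above 0.1, linear below) of the 14 segments called in at least 1 comparison, in order along the locus, for the groups whose values are known, with lines at group means. Trav12d-2 and Trav12n-2 form tight groups in anti-CTLA-4, while Trav12-3, Trav8-2, Trav17 and others have a single high isotype point above points near 0.

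Further segments are described by family. In the Trav12 family, known reads summed to 526, 397 and 912 in the anti-CTLA-4 libraries, 443, 1260 and 891 in the anti-PD-1 DANA libraries, 108, 7 and 3116 in the combination libraries, and 0, 1 and 919 in the isotype libraries. All 919 known reads of the deepest isotype library came from Trav12-3, and isotype values are known for 3 of the 10 members. Trav12-2 in the combination had 9.74, 0.220 and 8.11 RPKM, and its log2 fold change of 5.84 ± 1.92 had an adjusted p of 0.0708 in the authors' deposited table. Trav12-1 had 0, 175 and 251 reads in the anti-PD-1 DANA libraries, against an isotype mean of at most 0.0377 RPKM, and 0, 85 and 0 reads in the anti-CTLA-4 libraries. Trav12d-3 had 118, 1 and 175 reads in the anti-CTLA-4 libraries and 5, 149 and 86 in the anti-PD-1 DANA libraries. In anti-PD-1 DANA its identical copy Trav12n-3 had 0, 229 and 92 reads, against 0, 0 and 0 in the isotype libraries. Trav12d-2 was read evenly in the anti-PD-1 DANA libraries too, with 76, 113 and 78 reads, but its log2 fold change of 6.78 ± 2.22 had an adjusted p of 0.0945 in the authors' deposited table.

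Family Trav9 had known reads in every arm. Trav9n-4 had 993, 263 and 6 reads in the isotype libraries and lower means in all treatments, with a log2 fold change of -2.72, -2.15 and -2.42 for CTLA-4 blockade, PD-1 blockade and both together in the authors' deposited tables. Trav9-2 had 2, 272 and 590 reads in the anti-CTLA-4 libraries, against 0, 0 and 860 in the isotype libraries. Both groups held it in their deepest library, and its log2 fold change was -0.61 ± 2.12 in the authors' deposited table and 0.33 on library size scaling. The identical pair Trav9d-3 and Trav9n-3 was read in all libraries of the single treatments. Trav9d-3 had 42, 84 and 156 reads in the anti-CTLA-4 libraries and 35, 126 and 274 in the anti-PD-1 DANA libraries, against 0, 129 and 0 in the isotype libraries. Trav9n-3 had 54, 103 and 195 reads in the anti-CTLA-4 libraries and 47, 136 and 295 in the anti-PD-1 DANA libraries, against 1, 165 and 1 in the isotype libraries. Trav9d-2 had 35, 0 and 113 reads in the anti-CTLA-4 libraries, against 0, 0 and 1 in the isotype libraries. Its identical copy Trav9n-2 had 48, 0 and 76 reads in the anti-CTLA-4 libraries, against 0, 0 and 3 in the isotype libraries. Both were thus absent from the same anti-CTLA-4 library.

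Family Trav3 held segments read in all libraries of a single treatment. Trav3-3 had 32, 25 and 358 reads in the anti-CTLA-4 libraries and 225, 200 and 150 in the anti-PD-1 DANA libraries, against an isotype mean of at most 0.218 RPKM. The log2 fold change came to 9.29 ± 3.04 for anti-CTLA-4 (adjusted p = 0.0915) and 9.82 ± 3.04 for anti-PD-1 DANA (adjusted p = 0.0683) in the authors' deposited tables. The identical copies Trav3d-3 and Trav3n-3 were read in all 3 anti-CTLA-4 libraries. Trav3d-3 had 20.8, 13.7 and 16.1 RPKM in the anti-CTLA-4 libraries, against 29.3, 0 and 0.214 RPKM in the isotype libraries. Trav3n-3 had 18.4, 15.3 and 14.2 RPKM in the anti-CTLA-4 libraries, against 27.5, 0.0955 and 0.0713 RPKM in the isotype libraries. A single isotype library lay above all anti-CTLA-4 libraries, so the groups overlapped. Trav3-1 had 2, 177 and 0 reads in the anti-CTLA-4 libraries, against 0, 179 and 0 in the isotype libraries. Trav3-4 had 107, 0 and 170 reads in the anti-PD-1 DANA libraries, against 1, 0 and 0 in the isotype libraries.

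Family Trav6 was the largest with 15 members, and isotype values are known for 9 of them. Its known isotype reads numbered 2, 2 and 699, of which 691 came from Trav6-7-dv9, the segment called lower in the combination. Trav6d-6 had 17, 68 and 124 reads in the anti-CTLA-4 libraries, 42, 192 and 123 in the anti-PD-1 DANA libraries and 3, 305 and 0 in the combination libraries, against an isotype mean of at most 8.63 RPKM. Its identical copy Trav6-6 had 23, 82 and 135 reads in the anti-CTLA-4 libraries, 37, 197 and 140 in the anti-PD-1 DANA libraries and 2, 269 and 0 in the combination libraries. Both copies were read in every library of the single treatments and almost only in the middle combination library. Trav6d-7 had 64, 3 and 85 reads in the anti-CTLA-4 libraries and 51, 176 and 74 in the anti-PD-1 DANA libraries, against 0, 2 and 5 in the isotype libraries. Its identical copy Trav6n-7 had 69, 4 and 92 reads in the anti-CTLA-4 libraries and 40, 177 and 89 in the anti-PD-1 DANA libraries, against an isotype mean of at most 0.378 RPKM. Trav6n-6 had 35, 13 and 144 reads in the anti-CTLA-4 libraries, 15, 105 and 25 in the anti-PD-1 DANA libraries and 1, 63 and 0 in the combination libraries. Trav6-3 and Trav6-5 were absent from 1 or more libraries of both single treatments. Trav6-3 had 40, 97 and 0 reads in the anti-CTLA-4 libraries and 0, 118 and 119 in the anti-PD-1 DANA libraries. Trav6-5 had 0, 127 and 0 reads in the anti-CTLA-4 libraries and 0, 180 and 17 in the anti-PD-1 DANA libraries, against 0, 0 and 3 in the isotype libraries. Trav6d-4 was at 0 in isotype, anti-PD-1 DANA and the combination and had 34, 0 and 138 reads in the anti-CTLA-4 libraries, which was at least 73.6-fold higher than isotype with 3 reads over the group as the floor.

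Several segments of families Trav7 and Trav8 were read mostly in 1 or 2 libraries of an arm. Trav7-2 had 9, 152 and 323 reads in the anti-PD-1 DANA libraries and 22, 457 and 1 in the combination libraries, against 5, 3 and 428 in the isotype libraries. The groups overlapped, and the log2 fold changes of -0.62 and 0.03 lay within 1 standard error of 0 in the authors' deposited tables, with the first at 0.19 on library size scaling. Trav7-4 had 1, 2 and 412 reads in the anti-PD-1 DANA libraries and 0, 0 and 165 in the anti-CTLA-4 libraries. Trav7-5 had 327, 1 and 0 reads in the isotype libraries and a lower mean in each treatment. Trav8d-2 had 197, 0 and 105 reads in the anti-CTLA-4 libraries, against an isotype mean of at most 0.133 RPKM, and 73, 1 and 0 in the anti-PD-1 DANA libraries. Trav8n-2 had 10, 141 and 16 reads in the anti-CTLA-4 libraries and 59, 143 and 1 in the anti-PD-1 DANA libraries, against 1, 0 and 0 in the isotype libraries. All 6 libraries of the single treatments held it, but only 1 isotype library, with a single read. Trav8-1 had 166, 0 and 138 reads in the anti-PD-1 DANA libraries and 0, 51 and 31 in the anti-CTLA-4 libraries, against 0, 0 and 19 in the isotype libraries. Trav8d-1 had 211, 0 and 27 reads in the anti-PD-1 DANA libraries, against 1, 1 and 0 in the isotype libraries.

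Families Trav4, Trav5 and Trav14 held several segments with the larger mean in isotype. Trav5-4 had 223, 432 and 5 reads in the isotype libraries, with a mean of 26.3 RPKM, and log2 fold changes of -5.47, -2.37 and -0.73 for CTLA-4 blockade, PD-1 blockade and both together in the authors' deposited tables. Trav5d-4 had 135, 0 and 188 isotype reads and Trav5n-4, its identical copy, had 155, 0 and 170. For the combination their log2 fold changes were -7.27 ± 2.32 and -6.94 ± 2.32 in the authors' deposited table, with adjusted p-values of 0.0573 and 0.0790. Trav14d-1 had 6, 255 and 166 reads in the anti-PD-1 DANA libraries, against 0, 192 and 207 in the isotype libraries. Its identical copy Trav14n-1 had 0, 221 and 221 isotype reads and a lower mean in every treatment. These pairs were read in 2 isotype libraries each. Trav14-1 had 0, 0 and 619 isotype reads and Trav14-2 had 0, 363 and 0. Trav14n-3 had 0, 141 and 0 reads in the anti-CTLA-4 libraries and 118, 0 and 196 in the anti-PD-1 DANA libraries, against an isotype mean of at most 0.0434 RPKM. Trav14-3 was at 0 in isotype and anti-PD-1 DANA and had 27, 54 and 148 reads in the anti-CTLA-4 libraries, at least 97.9-fold higher than isotype with the same floor. Trav5-1 had 0, 176 and 19 reads in the anti-CTLA-4 libraries and 0, 73 and 0 in the anti-PD-1 DANA libraries. Trav4-3 had 49, 56 and 7 reads in the anti-CTLA-4 libraries and 0, 1 and 140 in the anti-PD-1 DANA libraries. None of these segments passed the threshold.

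Several segments of families Trav10, Trav13, Trav16 and Trav19 were read in 1 or 2 libraries of an arm. Trav10 had 188, 137 and 1 reads in the anti-CTLA-4 libraries, 0, 0 and 46 in the anti-PD-1 DANA libraries and 48, 0 and 0 in the combination libraries. Under anti-CTLA-4 its log2 fold change of 9.53 ± 3.27 had an adjusted p of 0.119 in the authors' deposited table. Trav10d had 0, 135 and 54 reads in the anti-PD-1 DANA libraries and Trav10n had 0, 0 and 178, against 1, 0 and 0 and 0, 1 and 0 reads in the isotype libraries. Trav13-2 had 55, 188 and 2 reads in the anti-PD-1 DANA libraries, against 0, 0 and 1 in the isotype libraries. Trav16n had 546, 2 and 0 isotype reads and Trav16 had 2, 417 and 0, so each led in another isotype library. Trav19 had 118, 0 and 0 reads in the anti-CTLA-4 libraries and 0, 0 and 233 in the anti-PD-1 DANA libraries, against 2, 0 and 0 in the isotype libraries. Each was carried by 1 library of its arm.

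How evenly a segment was read over the 3 libraries of an arm can be given where its reads are known. Among segments with at least 30 known reads, 1 library gave 80% or more of the mean for 20 of 50 in anti-CTLA-4 (40%), 20 of 54 in anti-PD-1 DANA (37.0%), 15 of 16 in the combination (93.8%) and 24 of 33 in isotype (72.7%). All 3 libraries gave over 10% of the mean for 12, 13, 0 and 0 segments in the same order. The median share of the top library was 64.5% in anti-CTLA-4, 64.4% in anti-PD-1 DANA, 98.9% in the combination and 99.2% in isotype. Other tested genes with recovered reads were taken at 30 to 1403 reads, without further matching by read number. Those with the larger mean in the treated arm rested on 1 library in 55.2%, 55.4% and 66.4% of cases. These shares are for CTLA-4 blockade, PD-1 blockade and both together. Other genes with the larger mean in isotype rested on 1 library in 77.2%, 79.8% and 79.1% of cases in the 3 tables, and Trav segments in 65.4%, 74.1% and 71.9%. The share among isotype segments lay below that of other genes in this range of reads in each table. Reads of a treated arm are known only where its mean was the larger or 0, and those of isotype only where its mean was larger than that of a treatment or 0. Each share thus covers segments that were high in its own arm, and no difference between arms was tested.

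**Figure D4:**
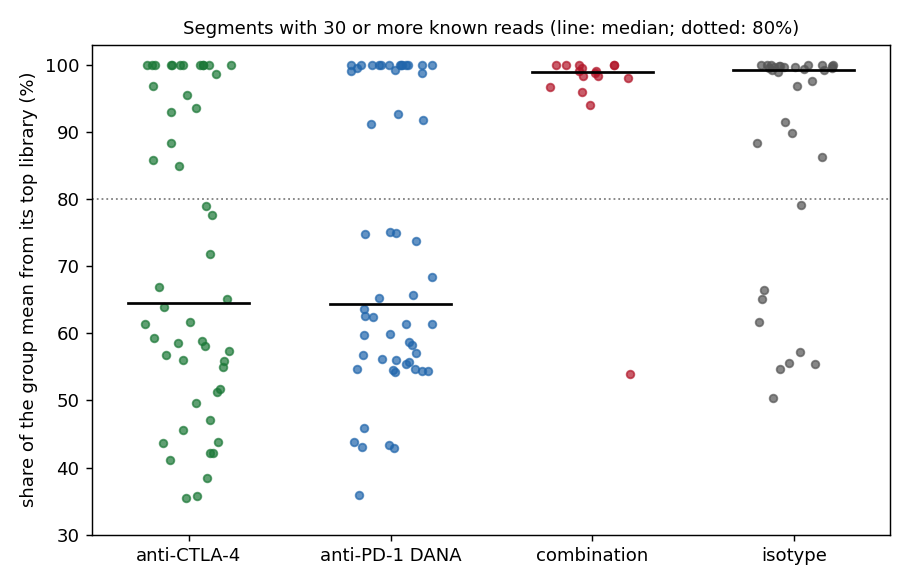
Share of the group mean that came from the top library, in percent, for each segment with at least 30 known reads in anti-CTLA-4, anti-PD-1 DANA, the combination and isotype; black lines are medians and the dotted line marks 80%. Points spread between the even share and 100% in the single treatments (medians 64.5% and 64.4%) and crowd near 100% in the combination (98.9%) and isotype (99.2%).

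The pairs with identical V exons show how reads were shared out between copies. In 17 of the 19 pairs at least 1 library with known values for both copies held 20 or more reads in sum, which gave 61 library values. The median share of the first-named copy was 49.0%, and 56 of the 61 values lay between 35% and 65%. In 4 values 1 copy was at 0. Trav12d-3 had 118 and 175 reads in the shallowest and the deepest anti-CTLA-4 library where Trav12n-3 had 0, although the pair shared reads about evenly in the combination (1350 and 1403 reads). Trav15d-1-dv6d-1 had 42 and 271 reads in the shallowest and the middle isotype library where Trav15n-1 had 0. The counted exons of Trav12d-3 and Trav12n-3 differ in length, at 347 and 353 bases, so the pair is not identical outside the V exon.

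**Figure D5:**
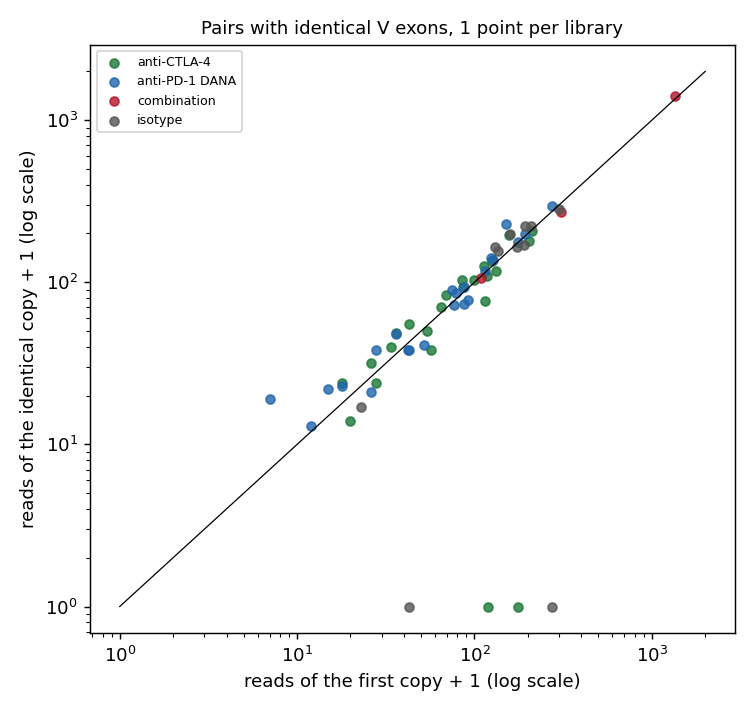
Reads of each copy of a pair with identical V exons in 1 library (both axes reads + 1 on a log scale), with 61 points from 17 pairs and the line of equal reads. Of these, 56 lie near the line, and 4 lie on the floor of the vertical axis, where the second copy had 0 reads.

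Some segments have a known use in unconventional T cells. Trav11 and Trav11d are joined to Traj18 in the invariant receptor of mouse natural killer T cells, and Trav1 to Traj33 in that of mucosal-associated invariant T cells. Trav11d had 319, 2 and 1 reads in the isotype libraries, as given above, and Trav11, whose V exon is 1 edit away, had 12, 0 and 0. Traj18 had 50, 42 and 19 reads in the same libraries. Zbtb16, the transcription factor of natural killer T cells, was at 0 in the tables of anti-CTLA-4 and the combination and hence in isotype. Trav1 had 0, 0 and 182 reads in the anti-CTLA-4 libraries and 97, 0 and 0 in the anti-PD-1 DANA libraries, against an isotype mean of at most 0.0365 RPKM. Its log2 fold change reached 7.98 ± 3.31 for anti-CTLA-4 (adjusted p = 0.281) and 7.39 ± 3.31 for anti-PD-1 DANA (adjusted p = 0.387) in the authors' deposited tables. Traj33 had 21, 1 and 33 reads in the anti-CTLA-4 libraries, against 1, 15 and 36 in the isotype libraries. In the list of natural killer T and mucosal-associated invariant T cell genes, Mr1 and Cd1d1, which present antigen to these cells, were called lower in the combination and no gene of the list was called in the other tables. The part of such cells in the values of Trav1 and Trav11d was not tested.

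Of the 10 segments shared with the delta chain 9 were tested, and 2 of them, Trav15-1-dv6-1 and Trav6-7-dv9, were called lower in the combination, where 3.59% of all tested genes were. In the single treatments none was called, against 1.49% of all tested genes called lower for anti-CTLA-4 and 1.32% for anti-PD-1 DANA. Trav15d-1-dv6d-1 had 42, 271 and 0 isotype reads, with log2 fold changes of -10.44 ± 3.29 for anti-CTLA-4 (adjusted p = 0.0708), -1.95 ± 2.14 for anti-PD-1 DANA (adjusted p = 1.0) and -10.18 ± 3.24 for the combination in the authors' deposited tables. Trav13-4-dv7 had 10, 0 and 415 isotype reads and Trav4-4-dv10 had 40, 0 and 117 reads in the anti-CTLA-4 libraries, against 1, 4 and 0 in the isotype libraries. Trav15-2-dv6-2 was read in anti-PD-1 DANA alone, with 162, 0 and 1 reads, and Trav14d-3-dv8 had 70, 0 and 147 reads there. The delta constant gene Trdc had 119, 443 and 0 reads in the anti-CTLA-4 libraries, against 0, 133 and 3 in the isotype libraries, and of 11 tested delta and gamma chain genes none was called. Of 20 pseudogenes 13 were at 0 everywhere. Of 6 pseudogenes tested Trav8-2 was the only one called, and Trav20 had 0, 152 and 0 reads in the isotype libraries.

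Other genes of the receptor were set beside the segments. Trac, the constant gene that every productive alpha transcript carries, had larger means of 359.8, 393.4 and 321.6 RPKM in the tables of CTLA-4 blockade, PD-1 blockade and both together. Its log2 fold changes were -0.77 ± 0.46, -0.51 ± 0.46 and -0.80 ± 0.46, none of them called, in the authors' deposited tables. Of the 51 tested genes among Trac and the joining segments, the 4 CD3 complex genes, Trbc1 and Trbc2, and 9 tested genes of V(D)J recombination, none was called in any table. Rag1 and Rag2, the recombinase genes, were at 0 throughout. Of 23 tested beta variable segments 5 were called lower in the combination (Trbv14, Trbv15, Trbv19, Trbv26 and Trbv31), beside 3.59% of all tested genes. None was called in the single treatments, where 1.49% and 1.32% of all tested genes were called lower. Among 10 regulators of the alpha locus Ets1, a transcription factor that binds the alpha enhancer, was called lower in the combination, with a log2 fold change of -1.90 ± 0.51 in the authors' deposited table (adjusted p = 0.0141). The other 9 were not called in any table.

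Markers of sorted and of other cells give the background of these values. None of 8 markers of CD8 T cells was called in any table, and Cd8b1 had larger means of 422.2, 413.3 and 345.5 RPKM. B cell markers were abundant although the sort was for CD3+CD8+ cells, with larger means that summed over 8 genes to 997.9, 507.9 and 472.3 RPKM in the tables of CTLA-4 blockade, PD-1 blockade and both together, and none was at 0. Ms4a1 was called higher in anti-CTLA-4. Cd4 was called higher in anti-CTLA-4 as well, with 132, 401 and 0 reads in its libraries, and the other 3 CD4 T cell markers were not called. Of 5 myeloid markers found 4 were tested, and Adgre1 was at 0. Fcgr3 and C1qa were called lower in anti-CTLA-4, and Fcgr3 and Lyz2 in the combination. In anti-PD-1 DANA, Csf1r was called higher and Fcgr3 lower. Fcgr3 had 467, 3 and 0 reads and C1qa had 1, 867 and 1 reads in the isotype libraries. Each was thus read almost alone in the shallowest or the middle library, as were several segments called lower. Means resting on 1 library were common, at 77.2%, 79.8% and 79.1% of other genes with the larger mean in isotype, as given above. Since only the larger mean is known, the sum of a marker list in each group cannot be given. The part of other cells in the Trav values was not tested.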

How the data were processed

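RNA of 12 libraries, 3 splits of 1 pool of 5 mice in each of 4 arms, was aligned and quantified with CLC Genomics Workbench, per the labels' protocols, with the genome build GRCm38.p5 named in the submitters' processing notes. Its version, like the model behind the p-values, is not given in the sources used. Each of the 3 deposited tables sets 1 treatment against isotype. In it the authors give, per gene, the larger group mean in RPKM, a log2 fold change, the same as a signed fold change (a score below 0 where lower), and a p-value with false discovery rate and Bonferroni adjustments. The 0.05 threshold was applied to the authors' deposited false discovery rate (Benjamini-Hochberg over all listed genes).

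The rest was computed with Python 3.11.15, numpy 2.4.6, pandas 2.3.3, scipy 1.17.1, matplotlib 3.10.9 and edlib 1.3.9.post1. Standard errors are the log2 fold change divided by the normal quantile of its p-value. For library size scaling these standard errors were kept, and p-values came from the normal distribution after the constant shift. They were adjusted over all listed genes. Whole reads per library were solved from the 10 decimals of each larger mean, the counted exon length and the library sizes. Over all genes 65.2% to 69.6% of means were solved, and 0.684% to 0.929% with the length wrong by 1 base, so a few accidental solutions are possible. Recovered reads are given without an error estimate. Each library started from 0.25 ng of RNA and 21 preamplification cycles, so their error is not limited to counting. V exons came from GENCODE mouse release M21 transcripts, and copies were compared by edit distance.

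Members and gene lists were chosen with earlier results of these data known. Named segments are those called, the 12 highest means per table, the neighbours of the threshold, Trav1, Trav11 and Trav11d, and those with a larger mean of 5 RPKM or more. Alternatives were the adjustment, filters on low means, library size scaling, and leaving out segments resting on 1 library, near-identical copies, segments shared with delta, and pseudogenes.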

Additional observations from a re-analysis of the deposited data

How the results depend on the processing

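The threshold was passed by 4, 4 and 11 segments for CTLA-4 blockade, PD-1 blockade and both together, and these counts depended on the processing. Adjusting over tested genes alone gave 10, 13 and 20 in the same order, and Bonferroni adjustment 0, 0 and 0. A larger mean of 1 RPKM or more gave 17, 21 and 26, and of 5 RPKM or more 14, 17 and 23. The filters keep a gene through the group where its mean is larger. Counts over all genes were not made for these settings, so the changes cannot be read as particular to the segments. At an unadjusted p under 0.05 there were 35 higher and 7 lower for anti-CTLA-4, 37 and 4 under anti-PD-1 DANA, and 13 and 24 under both together. Library size scaling gave 8 and 10 for the single treatments and 11 for the combination. Calls over all genes then numbered 1367, 1217 and 1359, against 754, 669 and 1343 on the authors' scaling. Leaving out segments that rest on 1 library left 3, 2 and 2, and leaving out those with a near-identical copy left 0, 1 and 1. Without segments shared with delta the counts were 4, 4 and 9, and without pseudogenes 3, 3 and 10. The median log2 fold change was 3.89, 3.84 and -2.12 at 1 RPKM or more and 0.45, 0.72 and -5.65 at 5 RPKM or more, in the same order. No called segment and no median changed sign under the alternatives run on it. Of segments not called, 7, 4 and 1 changed sign on library size scaling, among them Trav9-2 for anti-CTLA-4 and Trav7-2 for anti-PD-1 DANA. Both the adjustment over tested genes and the filters on low means adjust over fewer genes. Bonferroni adjustment is stricter, and library size scaling raises every log2 fold change of a comparison alike. Other causes were not tested.

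No paired analysis was possible because the recovered libraries cannot be tied to replicate numbers. Tests without single replicates were not run, since reads were recovered for the group with the larger mean only and the authors' model is not known; for Trav8-2 and Trav17 the isotype means without the top library, 0.0619 and 0.167 RPKM, stand in their place. Depth limits segments with few reads, and the mean of the lower group is not known.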
